A study of Mus musculus with 8 samples.

Results

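Besides forming bone, fat and cartilage, the mesenchymal stem cells (MSCs) of bone act on immune cells through what they secrete. Here the transcripts of 10 genes behind secreted inflammatory and immunomodulatory factors were followed. They were the chemokines Ccl2, Ccl7, Cxcl1 and Cxcl5, the IL-6 family cytokines Il6, Il11 and Lif, and Tnfaip6. The others, Ptgs2 and Ptges, encode enzymes that make prostaglandin E2 and are not themselves the secreted product. The members were taken by their gene symbols, and all 10 were found among the 53465 gene identifiers of the count table. All 10 also passed the filter on low counts, which left 14369 genes.

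The cells came from the hind limb bones of wild-type male C57BL/6N mice 3 to 5 months old, and no genotype or drug differed between the groups. Bone fragments were cultured at low oxygen, CD45-/TER-119-/Sca-1+/CD140a+ cells were sorted (on day 12 per the labels), and the sorted cells were then kept for a week at 2% oxygen (hypoxia) or 21% oxygen (normoxia). RNA-seq of 4 hypoxia and 4 normoxia samples asked how oxygen level shapes gene expression in MSCs. As a model these are primary cells in culture, and whether mice were pooled is not given in the sources used here.

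Total counts were 12898291 to 13433824 in 7 samples and 25132141 in hypoxia replicate 1, which carries the least counting error. At these depths 3 counts correspond to 0.125 to 0.241 CPM (counts scaled by library size and TMM normalization factors), a floor for counting error only, since amplified reads are not independent molecules. The labelled cell type was checked first: all 10 MSC markers passed the filter, with a summed level of 3249 to 3788 CPM in hypoxia and 3634 to 4195 CPM in normoxia (two-sided exact permutation test, p = 0.143). It was higher in normoxia in all 4 same-numbered pairs (exact paired permutation p = 0.125, the smallest that 4 pairs can give). Of all tested genes, 18.0% were called higher in normoxia and 16.5% lower (limma-trend, adjusted p under 0.05). Blocked by replicate number, these shares were 23.3% and 22.7%. Of the MSC markers, 3 were called higher (Nt5e, Cd44 and Itgb1) and 1 lower (Eng), and 4 and 4 when blocked by replicate number. Itgb1 was the most abundant, at a mean of 1075 CPM in hypoxia and 1450 CPM in normoxia, so it weighs most in the sum. Macrophage markers were present too in spite of the sort. Their summed level was 713 to 1557 CPM in hypoxia and 759 to 1492 CPM in normoxia (two-sided exact permutation p = 0.83), lowest in both samples numbered 1. Within the same-numbered pairs it was higher in normoxia in pair 1 (713 against 759 CPM) and lower in the other pairs (exact paired permutation p = 0.25). Of the 14 macrophage genes, 1 was called higher in normoxia (Lyz2) and 2 lower (C1qa and Mrc1), and when blocked by replicate number 1 was called higher and 9 lower. Lyz2 was the most abundant of them, at a mean of 354 CPM in hypoxia and 523 CPM in normoxia. The macrophage sum thus leans on a gene that rose while most of those called fell. The part of macrophage RNA in the changes given here was not tested. In bulk RNA, fewer cells of a type and less RNA per cell cannot be told apart. Neutrophil, lymphocyte, endothelial and erythroid lists summed to at most 0.859, 0.401, 2.65 and 0.231 CPM in any sample, with 4, 4, 2 and 5 of their markers at 0 counts in all samples.

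Chemokines are small secreted proteins that draw leukocytes along a gradient. CCL2 and CCL7 attract monocytes through the receptor CCR2, whereas CXCL1 and CXCL5 attract neutrophils through CXCR2. Cytokines of the IL-6 family signal through the shared receptor subunit gp130 to JAK kinases and STAT3. PTGS2 (cyclooxygenase-2) and PTGES (microsomal prostaglandin E synthase-1) make prostaglandin E2, and TNFAIP6 (TSG-6) binds hyaluronan. Many of these genes are induced by NF-kB, and many of their messengers carry AU-rich elements that shorten their life. In MSCs several of these products are known to dampen immune responses.

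Most of the factors were higher at 21% oxygen. The changes of the 10 members were all above 0, 7 of them passed the test (Il6, Cxcl1, Ptgs2, Ccl2, Lif, Ccl7 and Cxcl5), and 0 were called lower. Across all tested genes, 18.0% were called higher, 16.5% lower and 34.6% in either direction (limma-trend, adjusted p under 0.05). The median log2 change, normoxia minus hypoxia, was 1.09 over the members and 0.0049 over all tested genes. A call with a rise of at least 1 on the log2 scale was made for 6 members and for 0.946% of all tested genes. For 6 members the 4 normoxia values all lay above the 4 hypoxia values, which held for 17.1% of all tested genes. The members were chosen with earlier results of these data known, so these shares are a description and not a test of the list. Il11, Ptges and Tnfaip6 did not pass the threshold.

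Other fits gave the same picture for the members. With the replicate number as a block, 7 members were called, all higher, where 46.0% of all tested genes were called, 23.3% higher and 22.7% lower. The edgeR quasi-likelihood test and DESeq2 each called 7 members, against 33.8% and 32.8% of all genes. With the block and a correction for GC content and transcript length, 9 members were called higher, against 21.7% of all genes higher and 43.2% in either direction. In the same-numbered pairs, 8 members were higher in normoxia in all 4 pairs, which held for 27.7% of all tested genes.

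**Figure D1:**
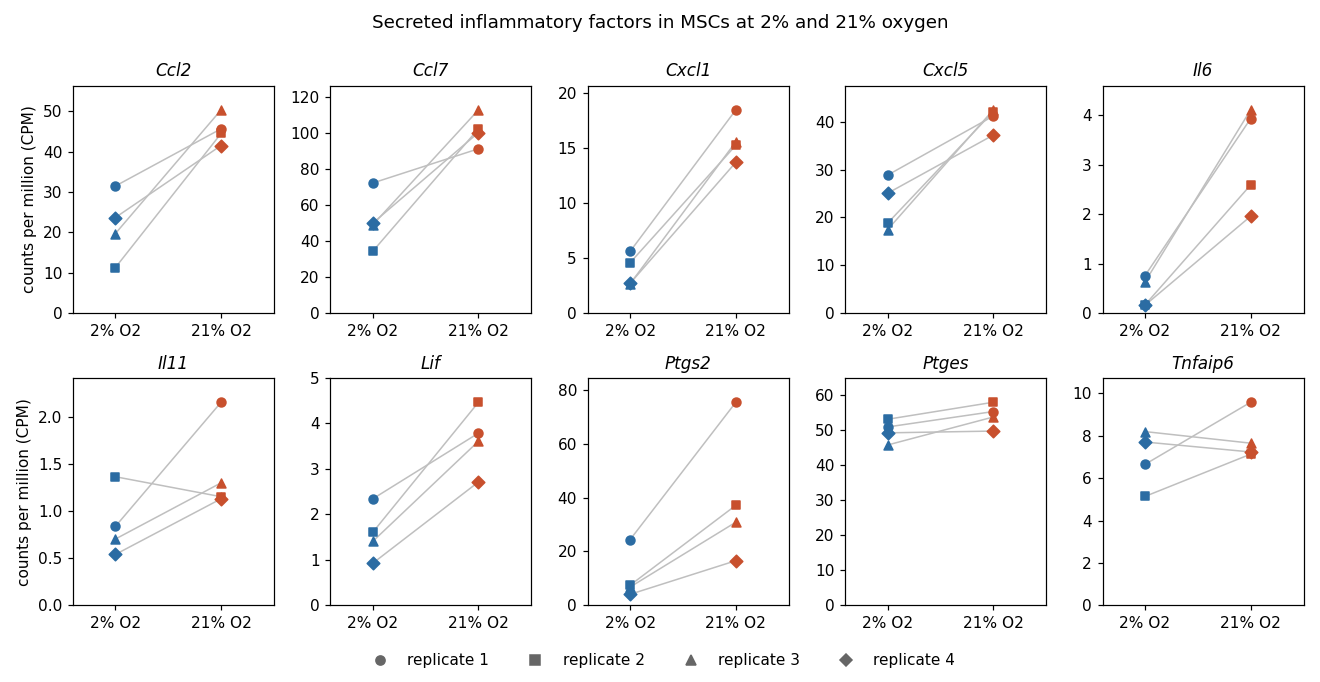
Level of each factor in CPM (vertical axis from 0) in the 4 samples at 2% oxygen (blue) and the 4 at 21% oxygen (red), with a symbol for each replicate number and grey lines joining samples of the same number. The groups are apart for Ccl2, Ccl7, Cxcl1, Cxcl5, Il6 and Lif, the lines of Ptgs2 all rise although its groups overlap, and those of Ptges stay between 45.8 and 58.1 CPM.

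The genes with the largest rises were Il6, Cxcl1 and Ptgs2, and the DNA just upstream of their starts is shown for that reason. A promoter window from RefSeq (GRCm38.p6) was matched for 7 of the 10 members, with 8 windows in all since Il11 has more than 1 start, and not for Ccl2, Ccl7 and Cxcl5. Each line gives the plus strand from 250 bases before the RefSeq start up to the last base before the gene. Capitals mark matches, on either strand, to 4 motifs: the kappaB motif (GGG, any 2 bases, then TTTCC), the AP-1 motif TGANTCA, the cyclic AMP response core ACGTCA, and the hypoxia response core ACGTG or GCGTG.
Il6, chr5:30012864-30013113: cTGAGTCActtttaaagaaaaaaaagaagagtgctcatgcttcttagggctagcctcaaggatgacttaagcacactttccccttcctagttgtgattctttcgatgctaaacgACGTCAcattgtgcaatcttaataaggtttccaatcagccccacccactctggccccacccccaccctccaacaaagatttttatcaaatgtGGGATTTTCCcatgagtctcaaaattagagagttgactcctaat
Cxcl1, chr5:90890995-90891240: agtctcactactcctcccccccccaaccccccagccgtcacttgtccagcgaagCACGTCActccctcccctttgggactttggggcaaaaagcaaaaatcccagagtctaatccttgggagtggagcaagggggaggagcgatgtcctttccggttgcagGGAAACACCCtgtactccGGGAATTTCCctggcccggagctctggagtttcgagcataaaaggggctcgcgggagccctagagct
Ptgs2, chr1:150099781-150100030: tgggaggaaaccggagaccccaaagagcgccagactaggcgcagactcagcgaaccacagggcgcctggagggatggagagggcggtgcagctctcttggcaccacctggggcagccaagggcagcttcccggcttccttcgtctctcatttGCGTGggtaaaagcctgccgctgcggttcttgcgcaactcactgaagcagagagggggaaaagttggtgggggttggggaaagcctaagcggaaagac

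The kappaB motif occurred in the windows of Il6 (1 match) and Cxcl1 (2 matches), and in 1.41% of all 32851 windows. In Cxcl1 a hypoxia response core overlaps the cyclic AMP response core. The AP-1 motif was in the windows of Il6, Lif and Tnfaip6 and in 1 window of Il11, against 6.75% of all windows. The cyclic AMP response core was in those of Il6 and Cxcl1, against 6.47%. The hypoxia response core was in those of Cxcl1, Lif, Ptgs2 and Ptges, against 38.6%. Matches to the AP-1 motif and the hypoxia response core were found both in members that rose and in members that did not pass the test. Those to the other motifs were in Il6 and Cxcl1, which rose, but not in Lif and Ptgs2, which rose as well. A match to these letters is a description of the window and not a binding site.

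Ccl2 (ENSMUSG00000035385, chromosome 11, 82035571 to 82037453) and Ccl7 (ENSMUSG00000035373, chromosome 11, 82045712 to 82047525) are neighbours, with 8.3 kb between them. In hypoxia Ccl2 was at 31.5, 11.2, 19.7 and 23.6 CPM in replicates 1 to 4, and in normoxia at 45.7, 44.5, 50.4 and 41.5 CPM. Every normoxia sample was above every hypoxia sample, and the spread was wider in hypoxia. The log2 change was 1.16 ± 0.23 (SE, limma-trend adjusted p = 0.00234). Gm17268, a gene annotated on the opposite strand across the whole of Ccl2, had 0 counts in every sample.

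Ccl7 was at 72.2, 34.3, 48.9 and 49.9 CPM in hypoxia and 91.3, 102.4, 112.9 and 100.3 CPM in normoxia. The groups did not overlap. Its log2 change was 1.03 ± 0.17 (SE, limma-trend adjusted p = 0.000762). The difference within the same-numbered pairs was smallest in pair 1 for both neighbours, at 0.53 for Ccl2 and 0.34 for Ccl7 on the log2 scale, and largest in pair 2, at 1.97 and 1.57.

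The CXC chemokines Cxcl5 (ENSMUSG00000029371, chromosome 5, 90759360 to 90761624) and Cxcl1 (ENSMUSG00000029380, chromosome 5, 90891241 to 90893115) lie 129.6 kb apart. Cxcl1 was at 5.60, 4.57, 2.65 and 2.70 CPM in hypoxia and at 18.5, 15.3, 15.6 and 13.7 CPM in normoxia. The lowest normoxia value was thus more than the highest hypoxia value by a wide margin. Its rise was 2.03 ± 0.22 on the log2 scale (SE, limma-trend adjusted p = 9.8e-05), the 7th highest among the 14369 tested genes. Cxcl5 was more abundant and changed less, from 28.8, 18.8, 17.4 and 25.04 CPM in hypoxia to 41.2, 42.1, 42.5 and 37.2 CPM in normoxia. The log2 change of Cxcl5 was 0.88 ± 0.14 (SE, limma-trend adjusted p = 0.000614), again without overlap.

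Il6 (ENSMUSG00000025746, chromosome 5, 30013114 to 30019981), which encodes interleukin-6, was rare in hypoxia. It had 18, 2, 8 and 2 counts in hypoxia replicates 1 to 4, that is 0.752, 0.161, 0.625 and 0.154 CPM, so replicates 2 and 4 were under the floor of 3 counts. In normoxia it had 53, 36, 57 and 26 counts, or 3.94, 2.59, 4.11 and 1.96 CPM. The groups did not overlap, and each pair rose by 2.11 to 2.93 on the log2 scale. Its log2 change, 2.50 ± 0.37, was the highest of all 14369 tested genes (SE, limma-trend adjusted p = 0.000413). It ranked first in 11 of 20 fits, and its rank ranged from 1 to 5 over all of them. With so few counts the size depends on the prior count, and the edgeR quasi-likelihood test gave 2.74 (adjusted p = 0.000551).

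Lif (ENSMUSG00000034394, chromosome 11, 4257557 to 4272514) encodes leukaemia inhibitory factor. It was at 2.34, 1.61, 1.41 and 0.925 CPM in hypoxia and at 3.79, 4.47, 3.61 and 2.71 CPM in normoxia. The groups did not overlap, although hypoxia replicate 1 came close to normoxia replicate 4. The log2 change was 1.16 ± 0.25 (SE, limma-trend adjusted p = 0.00379).

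Il11 (ENSMUSG00000004371, chromosome 7, 4772373 to 4782859), the cytokine interleukin-11, had only 7 to 29 counts per sample. It was at 0.836, 1.36, 0.703 and 0.539 CPM in hypoxia and at 2.15, 1.15, 1.30 and 1.13 CPM in normoxia. The groups overlapped, since hypoxia replicate 2 was above 3 of the normoxia samples. The log2 change of 0.64, with a 95% interval of 0.017 to 1.25 before adjustment, did not pass the threshold over all genes (limma-trend adjusted p = 0.104 unblocked and 0.0515 blocked by replicate number). It passed without hypoxia replicate 2 (0.84, limma-trend adjusted p = 0.0377), and in the fit that was both blocked and corrected for GC content and length (0.70, limma-trend adjusted p = 0.0326).

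Ptgs2 (ENSMUSG00000032487, chromosome 1, 150100031 to 150108227) had the widest spread of all members relative to its mean, in both groups. It was at 24.4, 7.46, 6.79 and 4.08 CPM in hypoxia and at 75.5, 37.2, 30.9 and 16.6 CPM in normoxia. The groups overlapped, because hypoxia replicate 1 was above normoxia replicate 4, yet the sample numbered 1 was highest and that numbered 4 lowest in both groups, and every pair rose by 1.62 to 2.29 on the log2 scale. The log2 change was 2.01 ± 0.49 (SE, limma-trend adjusted p = 0.00814). Blocked by replicate number, the SE came to 0.099 (limma-trend adjusted p = 4.3e-13).

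Ptges (ENSMUSG00000050737, chromosome 2, 30889471 to 30929863) changed little by contrast. The pseudogene Gm13400, which overlaps it on the same strand, had at most 1 count in a sample. Ptges was at 51.0, 53.2, 45.8 and 49.3 CPM in hypoxia and at 55.4, 58.1, 53.8 and 49.8 CPM in normoxia. The values overlapped, with small differences of 0.015 to 0.23 on the log2 scale in the 4 pairs, all upward. The log2 change was 0.12 with a 95% interval of -0.030 to 0.28 (limma-trend adjusted p = 0.199 unblocked and 0.11 blocked by replicate number). It passed the threshold when no TMM factors were used (0.21, limma-trend adjusted p = 0.032) and when blocked and GC-corrected at once (0.18, limma-trend adjusted p = 0.0118).

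The balance of both prostaglandin enzymes was then read within each sample, a comparison chosen after the values were seen. Per kb of exon, Ptgs2 was at 0.411, 0.12, 0.127 and 0.0711 times the level of Ptges in hypoxia replicates 1 to 4. In normoxia the ratios were 1.17, 0.549, 0.492 and 0.286. The log2 ratio rose by 1.51 to 2.19 in all 4 pairs. Without pairing, the groups overlapped (mean log2 ratio -2.78 ± 1.07 against -0.87 ± 0.84, SD, n = 4 each, two-sided exact permutation p = 0.0571).

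Tnfaip6 (ENSMUSG00000053475, chromosome 2, 52038009 to 52056686) was at 6.65, 5.14, 8.20 and 7.70 CPM in hypoxia and at 9.58, 7.13, 7.65 and 7.24 CPM in normoxia. It was higher in 2 pairs and lower in 2, and the groups overlapped. Its log2 change was 0.20 with a 95% interval of -0.15 to 0.54 (limma-trend adjusted p = 0.374 unblocked and 0.241 blocked by replicate number). Corrected for GC content and length, the change was 0.033 (limma-trend adjusted p = 0.895 unblocked and 0.861 blocked).

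**Figure D2:**
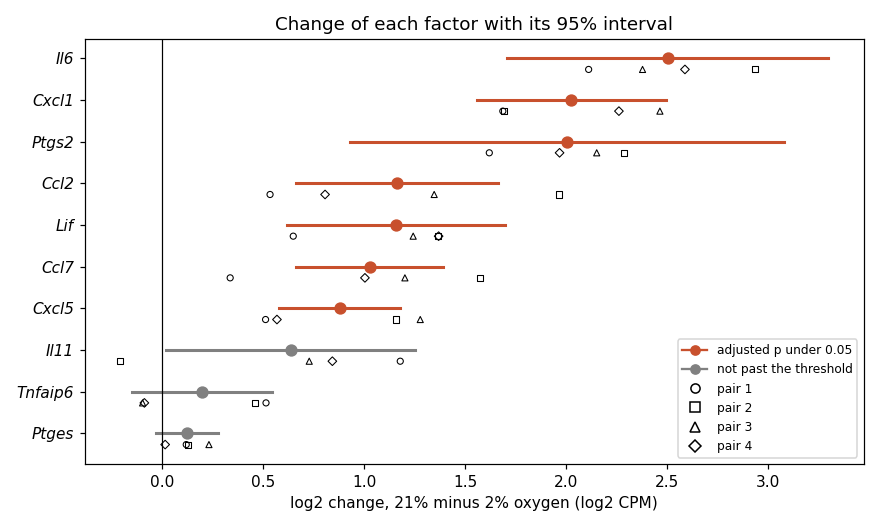
Log2 change of each factor, normoxia minus hypoxia (horizontal axis, log2 CPM), with its unadjusted 95% interval from limma-trend (filled points and bars, red where the adjusted p was under 0.05) and the difference in each same-numbered pair (open symbols). Il6, Cxcl1 and Ptgs2 lie at 2.50, 2.03 and 2.01, and the intervals of Tnfaip6 and Ptges include 0.

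Levels of different members were compared per kb of exon. In hypoxia the order was Ccl7 (64.1 CPM per kb), Ccl2 (18.9), Ptges (12.7), Cxcl5 (12.1), Tnfaip6 (4.05), Ptgs2 (2.33), Cxcl1 (2.07), Il11 (0.413), Lif (0.361) and Il6 (0.174). The sample ranges of neighbours in this order overlapped from Ccl2 to Cxcl5, from Tnfaip6 to Cxcl1 and from Il11 to Il6. In normoxia it was Ccl7 (127.0 CPM per kb), Ccl2 (40.0), Cxcl5 (21.9), Ptges (13.8), Ptgs2 (8.74), Cxcl1 (8.41), Tnfaip6 (4.62), Il6 (1.30), Lif (0.838) and Il11 (0.689). There the ranges overlapped from Ptges to Cxcl1 and from Il6 to Il11. Ccl7 stood apart at the top in both groups, and Il6 had the lowest mean in hypoxia but not in normoxia.

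**Figure D3:**
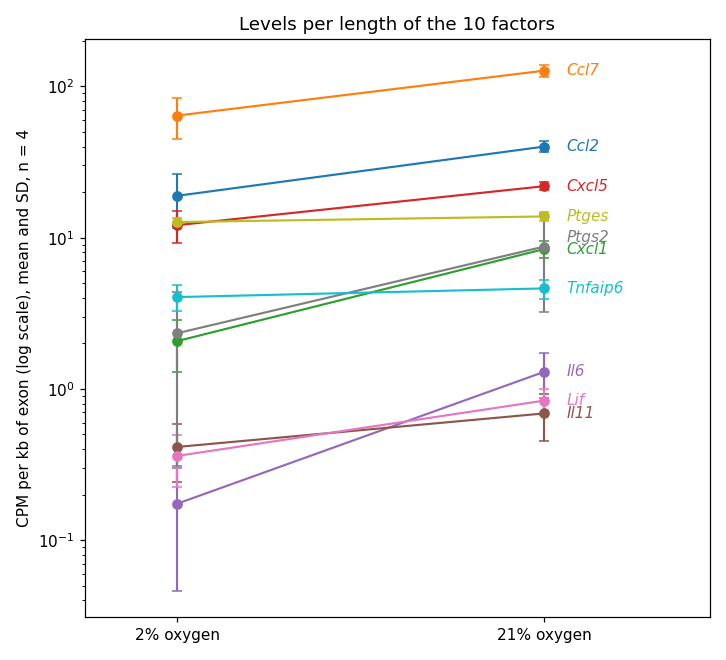
Level of each factor per kb of exon (vertical log axis, CPM per kb) at 2% and 21% oxygen, as mean and SD of 4 samples. Ccl7 is the highest in both groups, at 64.1 and 127.0 CPM per kb, and the line of Il6 starts lowest, at 0.174, and ends above those of Lif and Il11.

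Hypoxia replicate 1 had the highest value of the hypoxia samples for all 7 members that rose, as well as the lowest macrophage sum of all samples. Without it the same number of members, 7, passed the threshold, all higher. In that fit 5423 of 14616 tested genes were called, 2853 higher and 2570 lower. The log2 changes were then larger, at 2.70 for Il6, 2.50 for Ptgs2, 2.21 for Cxcl1, 1.38 for Ccl2, 1.34 for Lif, 1.21 for Ccl7 and 1.01 for Cxcl5. This fit broke pair 1, since it kept normoxia replicate 1, which had the highest Ptgs2 level of all samples. The Ptgs2 difference was 1.62 within pair 1 and 2.29, 2.15 and 1.97 within pairs 2 to 4 on the log2 scale. The deviation of each gene from its mean over the 8 samples also followed the GC content of transcripts. For each 10 percentage points of GC, this deviation in log2 CPM moved by between 0.0737 and 0.18 at 2% oxygen. At 21% oxygen it moved by between -0.14 and -0.0858. Group averages of opposite sign follow from the shared mean, so only the gap between the groups is informative. Of the members, 7 had a transcript GC content under the median of the tested genes (49.7%), from 39.3% in Il6 to 44.6% in Cxcl1, whereas Il11, Lif and Ptges were at 51.5%, 53.0% and 53.1%. After the GC and length correction 7 members were called, all higher, against 29.5% of all tested genes in either direction, 15.1% higher and 14.4% lower. Their log2 changes ran from 0.71 for Cxcl5 to 2.30 for Il6.

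The 3′ untranslated regions of the members were also searched for the pentamer ATTTA, the core of AU-rich elements. At least 5 copies were present in 7 members, against 20.5% of 12859 tested coding genes. Ptgs2 had 14, Il11 10, Cxcl1 and Lif 7 each, Il6 and Tnfaip6 6 each, Cxcl5 5, Ccl7 2, Ccl2 1 and Ptges 0. These regions differ in length, from 275 bases in Ccl2 to 3180 in Lif. Many copies were thus found both in members that rose and in Il11 and Tnfaip6, which did not pass.

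Other genes of these pathways were read from 8 lists of 168 entries, of which 126 passed the filter. Of these, 37 were called higher, 19 lower and 70 were not called. Across all tested genes, 18.0% were called higher and 16.5% lower, or 23.3% and 22.7% when blocked by replicate number. The counts of each list below stand beside these shares, and no list was tested against them. The median log2 change was 0.067.

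Among other chemokine ligands, 13 of 27 passed the filter, 1 was called higher and 1 lower. Cxcl14 rose from 172 ± 95.3 to 504 ± 142 CPM (SD, n = 4 each), a log2 change of 1.65 ± 0.32 (SE, limma-trend adjusted p = 0.00207). Cx3cl1, which encodes fractalkine, fell by 0.27 on the log2 scale (limma-trend adjusted p = 0.0205), but not when blocked and GC-corrected at once (-0.13, adjusted p = 0.11). With the block, 3 ligands were called higher and 3 lower.

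Of 13 chemokine receptors, 5 passed the filter, and 2 were called higher. Both are atypical receptors, which bind chemokines without signalling through G proteins: Ackr3 rose by 0.90 and Ackr4 by 0.74 on the log2 scale (limma-trend adjusted p = 0.000462 and 0.000369). Of the receptors that answer the members, Cxcr2 had 0 counts in every sample. Ccr1 had 3 to 9 counts and a log2 change of -0.37 (limma-trend adjusted p = 0.416). Ccr2, a gene of monocytes, had 0 to 32 counts and a log2 change of -1.64 that missed the threshold unblocked (limma-trend adjusted p = 0.051) and passed when blocked by replicate number (0.000152).

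In the IL-6 family and its signalling, 17 of 20 genes passed the filter, 7 were called higher and 4 lower. Il6st, which encodes gp130, was at 1557 ± 150 CPM in hypoxia and 1538 ± 101 CPM in normoxia (SD, n = 4 each, limma-trend adjusted p = 0.912). The ligand-specific receptors differed from each other in their values. Il11ra1 fell from 100.5 ± 14.8 to 62.3 ± 9.07 CPM, a log2 change of -0.69 (limma-trend adjusted p = 0.0011). Il6ra and Lifr had log2 changes of -0.26 and -0.030 (limma-trend adjusted p = 0.287 and 0.876), and Lifr passed when blocked and GC-corrected at once (-0.16, adjusted p = 0.0205).

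Clcf1, a gp130 ligand, rose by 0.78 on the log2 scale (limma-trend adjusted p = 0.00331). By contrast, Ctf1 (cardiotrophin-1), with 20 to 85 counts per sample, had a log2 change of -0.60 (limma-trend adjusted p = 0.0437, and 0.0763 once blocked and GC- and length-corrected). Socs3, a feedback inhibitor induced by STAT3, rose from 67.7 ± 13.5 to 92.8 ± 5.00 CPM, a log2 change of 0.47 (limma-trend adjusted p = 0.00758).

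In the prostanoid list, 16 of 19 genes passed, 3 were called higher and 4 lower. Hpgd, the dehydrogenase that inactivates prostaglandins, fell from 44.8 ± 13.1 to 19.8 ± 3.71 CPM (SD, n = 4 each), a log2 change of -1.14 ± 0.20 (SE, limma-trend adjusted p = 0.00122). Tbxa2r, the thromboxane receptor, fell by 1.00 on the log2 scale (limma-trend adjusted p = 0.00664). Of the 4 prostaglandin E2 receptors, Ptger4 rose from 9.09 ± 2.07 to 17.4 ± 3.87 CPM, a log2 change of 0.92 (limma-trend adjusted p = 0.00321). Ptger2 had a log2 change of -0.71 that missed the threshold unblocked (limma-trend adjusted p = 0.0569) and passed when blocked (0.0287). Ptger1 and Ptger3 had 1 to 9 and 1 to 11 counts and were too low to be tested.

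All 35 genes of the NF-kB list passed the filter, 11 were called higher, 3 lower and 21 were not called. Nfkbiz, an inducible nuclear IkB protein that takes part in Il6 induction, rose from 4.02 ± 1.08 to 9.06 ± 1.19 CPM, a log2 change of 1.16 (limma-trend adjusted p = 0.000528). The kinase gene Map3k7 and the transcription factor gene Cebpd rose by 0.57 and 0.51 (limma-trend adjusted p = 0.000242 and 0.00583). Nfkbia, the classic feedback target of the pathway, was at 20.9 ± 0.891 CPM in hypoxia and 19.3 ± 2.93 CPM in normoxia (limma-trend adjusted p = 0.403). The genes called lower, named after their values were seen, encode subunits of NF-kB itself: Rela, Relb and Nfkb2 fell by 0.36, 0.43 and 0.36 on the log2 scale (limma-trend adjusted p = 0.00203, 0.00622 and 0.00141). When blocked and GC-corrected at once, their changes were -0.17, -0.29 and -0.18. The other subunit genes, Nfkb1 and Rel, had log2 changes of 0.023 and -0.063 (limma-trend adjusted p = 0.807 and 0.634). When blocked and GC-corrected at once, they too were called lower (-0.13 and -0.25, limma-trend adjusted p = 0.0418 and 0.0278). The list median was 0.068.

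Regulators of cytokine messenger decay went both ways, with 3 of 12 called higher and 4 lower. Zc3h12a, which encodes the cytokine mRNA-cleaving enzyme regnase-1, rose by 0.55, and Arid5a, which encodes a protein that stabilises Il6 mRNA, by 0.38 on the log2 scale (limma-trend adjusted p = 0.0174 and 0.0163). Zfp36l1, a decay factor for AU-rich messengers, fell by 0.41 (limma-trend adjusted p = 0.00465). Its relative Zfp36 (tristetraprolin) was at 17.4 ± 1.29 CPM in hypoxia and 18.1 ± 2.17 CPM in normoxia (limma-trend adjusted p = 0.723).

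In the hyaluronan matrix list, to which the ligand of TNFAIP6 belongs, 11 of 17 genes passed the filter, 7 were called higher and 0 lower, with a median log2 change of 0.55. Has2, a hyaluronan synthase, rose from 31.1 ± 5.51 to 64.7 ± 9.53 CPM (SD, n = 4 each), a log2 change of 1.05 (limma-trend adjusted p = 0.000163). Vcan, the proteoglycan versican, Hmmr, a hyaluronan receptor also known for its role in mitosis, and Cd44, the main hyaluronan receptor, rose by 1.13, 0.93 and 0.72 (limma-trend adjusted p = 0.000695, 0.00505 and 0.013). When blocked, 7 genes of this list were called higher and 1 lower.

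Of 25 other immune modulators, 17 passed the filter, 3 were called higher and 3 lower. The cytokine gene Il33 rose from 4.70 ± 1.19 to 11.7 ± 3.73 CPM, a log2 change of 1.25 (limma-trend adjusted p = 0.00151). Nt5e, the surface enzyme CD73 that makes adenosine, rose by 0.58, and Lgals1 (galectin-1) fell by 0.53 on the log2 scale (limma-trend adjusted p = 0.00244 and 0.00057). Some inflammatory genes outside the 10 members, named after their values were seen, were at or near the floor in all samples: Csf2 had 0 counts, Il1b at most 2 and Nos2 at most 2.

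**Figure D4:**
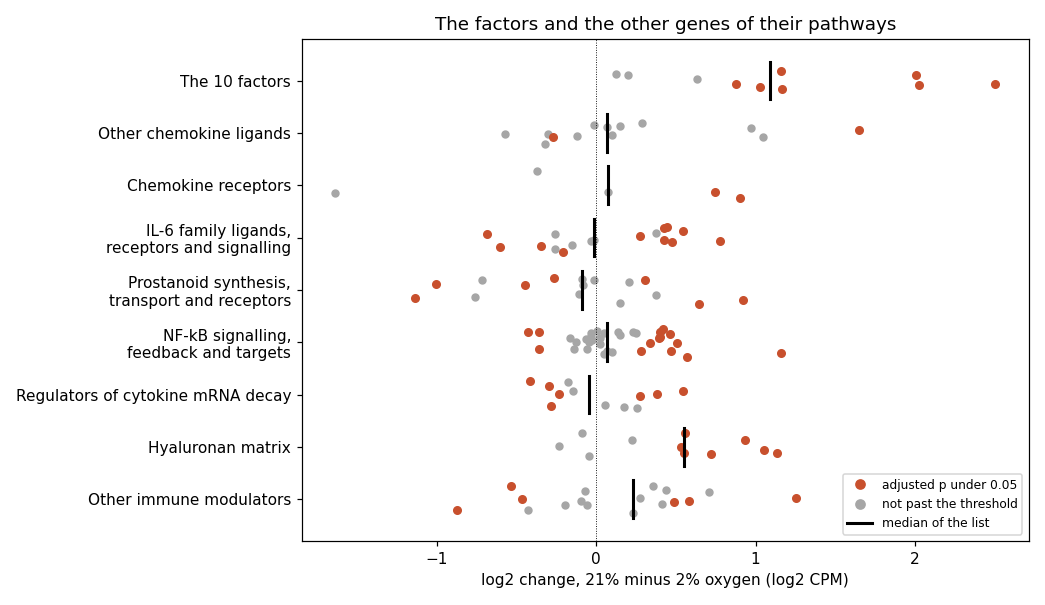
Log2 change, normoxia minus hypoxia (horizontal axis), of the 10 factors and of the 126 other pathway genes that passed the filter, 1 point per gene, red where the limma-trend adjusted p was under 0.05, with the median of each list as a bar. The 10 factors have a median of 1.09, the hyaluronan matrix list 0.55, and the NF-kB list 0.068.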

How the data were processed

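RNA-seq was performed on 8 samples of bone MSCs, 4 per oxygen level, grouped by their titles. Per the labels and methods, the authors ran zUMIs on single-end reads (alignment by STAR, counting by featureCounts) against mm10 (GRCm38) and Ensembl genes and deposited raw counts per gene, whole numbers that are not normalized. Strand and intron settings are not given in the sources used here. Symbols (53360 of 53465 identifiers), positions, exon lengths and transcripts came from GENCODE M21, of the same assembly.

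The filter (filterByExpr, minimum count 5, edgeR 4.0.16), limma-trend (limma 3.58.1, R 4.3.3) and the threshold of 0.05 follow the study's methods. The TMM factors and the prior count of 3 behind the log2 CPM were chosen here, as was Benjamini-Hochberg adjustment over the 14369 tested genes. Changes on this scale are understated for genes with few counts. Alternatives were the edgeR quasi-likelihood test, DESeq2 1.42.0, limma-voom, other scaling, filters and prior count, a replicate block, a correction of each sample for GC content and length (splines with 5 degrees of freedom), and leaving out each sample. Single values were compared by exact permutation over 70 assignments, whose smallest p is 0.0286. Each p-value sets a difference against the spread between these samples, and the unblocked fits leave the replicate numbers out.

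Samples numbered alike deviated together from their group means (correlations across genes of 0.47, 0.28, 0.25 and 0.17 for pairs 1 to 4), and the study describes splitting a sorted population between oxygen levels, so the numbers were taken as pairs. No samples of a group agreed within sampling noise (chi-square per degree of freedom of at least 3.66). The methods were tested on simulated data.

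The members and lists were chosen with earlier results of these data known. Genes named beyond the members are, per list, the 3 largest changes among those called with a mean log2 CPM of at least 1, the receptors of the members (with Cd44, the receptor of the hyaluronan that TNFAIP6 binds), and Nfkbia, Zfp36 and Socs3.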

Additional observations from a re-analysis of the deposited data

Results flagged for a closer look

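In groups of 4 samples, Dixon's test for outlying values was applied to 34 sets of values (each member's log2 CPM, each marker list's sum, and the total counts), with the gap at one end of the group over its whole range as the statistic. Chance gives about 1 in 20, or 1.7 sets, and 2 passed the 95% critical value, none of them a member. Hypoxia replicate 1 stood out for its 25132141 total counts (statistic 0.976), whereas the rest of its group had 12929564 to 13219647. Normoxia replicate 4 stood out for an erythroid marker sum of 0 CPM (statistic 0.97), whereas the rest of its group had 0.144 to 0.149 CPM, all under the floor of 3 counts.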

How the results depend on the processing

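The 10 members were refitted under 19 alternatives each. In 186 of these 190 fits a member kept its direction and its side of the threshold, in 4 (Il11 and Ptges, 2 each) a member that had not passed did pass, and in 0 was a direction turned or a call lost. Between 7 and 9 members were called over the alternatives. With the replicate block 7 members, 71 of the 126 companion genes and 6610 of all genes were called, and the block changed the call of no member. Leaving out each sample in turn gave 7 to 8 members, 51 to 70 companion genes and 3838 to 5423 genes in all. Without TMM factors the split of calls moved from 2592 higher and 2378 lower to 3611 and 1575, and that of companion genes from 37 and 19 to 43 and 13, since this scaling shifted the median of all genes to 0.089. Without hypoxia replicate 1 the difference of macrophage sums (normoxia minus hypoxia) went from -59 to -197 CPM (unpaired exact permutation p = 0.429). This comparison broke pair 1, since it kept normoxia replicate 1, which had the lowest sum in normoxia, 759 CPM. In pairs 2 to 4 the sums were 1028, 1557 and 1212 CPM in hypoxia and 929, 1492 and 1094 CPM in normoxia. All members passed the filter, so the tests planned for members under it were not run. Depth limits Il6 and Il11 most.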
